A study of Mus musculus with 3 samples.

Results

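The type I interferon-stimulated antiviral effectors described here are 40 genes fixed by name, from the Ifit, Oas, Mx and Schlafen families to ISG15, tetherin and PKR. They were read out of 55536 annotated genes in 3 libraries of ribosomal-RNA-depleted total RNA. The RNA came from the cytosolic fraction of bone-marrow-derived macrophages of C57BL/6J mice, primary cells with no engineered allele named in the labels. All 3 cultures had received Lipid A, the membrane-anchored part of bacterial endotoxin, at 100 ng/ml for 12 hours, were washed out for 12 hours, and were given Lipid A again at 100 ng/ml for 40 minutes. The libraries are labelled as biological replicates 1, 2 and 3 and share 1 donor label, so whether the cultures came from different animals is not given. Age and sex were not recorded in the labels. Every culture had the same treatment, so no value below says whether Lipid A, or interferon, raised or lowered a gene.

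Type I interferon is secreted by macrophages when Lipid A is sensed by TLR4 and the adaptor TRIF leads to activation of the transcription factor IRF3. The interferon binds the IFNAR receptor on the same and neighbouring cells, and the kinases JAK1 and TYK2 then set off assembly of a transcription factor complex called ISGF3. ISGF3 binds a DNA element, the interferon-stimulated response element or ISRE, near the genes whose products block virus entry, bind foreign RNA, stop translation or alter nucleotide pools.

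The letters of that element were looked for in the promoters of the members, since it is what this group of genes is known to share. RefSeq promoter windows (GRCm38.p6, 250 bases before to 50 bases after a start) were matched by symbol for 32 of the 40 members. The 8 without a matched window were Mx1, Mx2, Oas2, Parp9, Parp14, Rtp4, Tor3a and Usp18. A motif of GAAA, any 2 bases and GAAA was searched on both strands and was present in 14 of the 32 members (43.8%), against 3.99% of 27025 genes with a window. Its longer form, which ends in GAAACT in place of GAAA, was present in 9 of the 32 members (28.1%), against 0.303% of all genes, and before the start in 8, against 0.255%. Every match of the longer motif is also a match of the shorter one.

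In 12 of the 14 members a match lay before the start, against 3.46% of all genes, and these windows are printed because they show how the element is arranged. Isg15 (chr4:156200860-156200911, minus strand) and Bst2 (chr8:71537572-71537617, minus strand) had overlapping matches in tandem. Ifit1 (chr19:34640770-34640828), Ifit3 (chr19:34583358-34583431) and Ifit3b (chr19:34607754-34607827), all on the plus strand, had a pair of separate matches. Oas1a (chr5:120907526-120907560), Oas1g (chr5:120887614-120887646) and Oas3 (chr5:120777710-120777749) lie on the minus strand. Single matches were printed for Rsad2 (chr12:26456548-26456587, minus strand), Phf11b (chr14:59341356-59341395, minus strand), Slfn5 (chr11:82951932-82951971, plus strand) and Slfn8 (chr11:83020834-83020873, minus strand). Each is given from 5′ to 3′ on the strand of its gene, with up to 15 bases on either side. Capitals mark matches of the shorter motif or of its reverse complement, TTTC, any 2 bases and TTTC.
Isg15: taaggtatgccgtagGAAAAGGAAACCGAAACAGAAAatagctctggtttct
Bst2: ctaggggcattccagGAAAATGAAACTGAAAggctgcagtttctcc
Ifit1: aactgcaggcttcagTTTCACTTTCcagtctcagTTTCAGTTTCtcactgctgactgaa
Ifit3: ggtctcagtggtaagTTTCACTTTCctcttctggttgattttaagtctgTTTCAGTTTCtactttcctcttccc
Ifit3b: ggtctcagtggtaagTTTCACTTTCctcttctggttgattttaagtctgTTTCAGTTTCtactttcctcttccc
Oas1a: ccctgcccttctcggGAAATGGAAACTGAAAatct
Oas1g: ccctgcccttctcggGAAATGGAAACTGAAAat
Oas3: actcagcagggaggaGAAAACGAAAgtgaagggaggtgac
Rsad2: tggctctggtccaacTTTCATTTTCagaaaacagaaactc
Phf11b: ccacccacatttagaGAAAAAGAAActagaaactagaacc
Slfn5: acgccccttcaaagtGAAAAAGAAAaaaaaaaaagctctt
Slfn8: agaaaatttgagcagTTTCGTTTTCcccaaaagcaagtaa

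Isg15 held 3 overlapping matches, with the first letter of the first at position -78 (the start itself being 0), and Bst2 held 2, the first at -130. The windows of Ifit3 and Ifit3b were identical at 74 of 74 bases, so these paralogs count as 1 stretch of sequence rather than as separate cases. In both, the match that reads TTTCAGTTTC stood nearer to the start, at -122 in Ifit3 and at -154 in Ifit3b. The Oas1a and Oas1g stretches also share their letters and their place, with first matches at -20 and -18. Slfn8 had 2 RefSeq starts, and its match at -48 from one is at -136 from the other. In Ifitm3 and Eif2ak2 the matches lay after the start only, at positions 2 and 19 in Ifitm3 and at 18 in Eif2ak2.

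Motifs other than the ISRE were counted in the same windows. A GAS-like motif, TTCNNNGAA on both strands, was in 8 of 32 members, against 9.55% of all genes, and before the start in 6, against 8.13%. Bst2, Eif2ak2, Ifitm3 and Oas1a held it along with the ISRE-like motif, while Ifi35, Ifit2, Isg20 and Samhd1 held it alone. TATAAA on the gene strand was in 1 of 32 members, Ifi47 (3.12%), against 9.77% of all genes, or 8.94% when only bases before the start are read. A match is a run of letters and no evidence of binding, and a window without one may hold the element in another spelling or place.

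**Figure D1:**
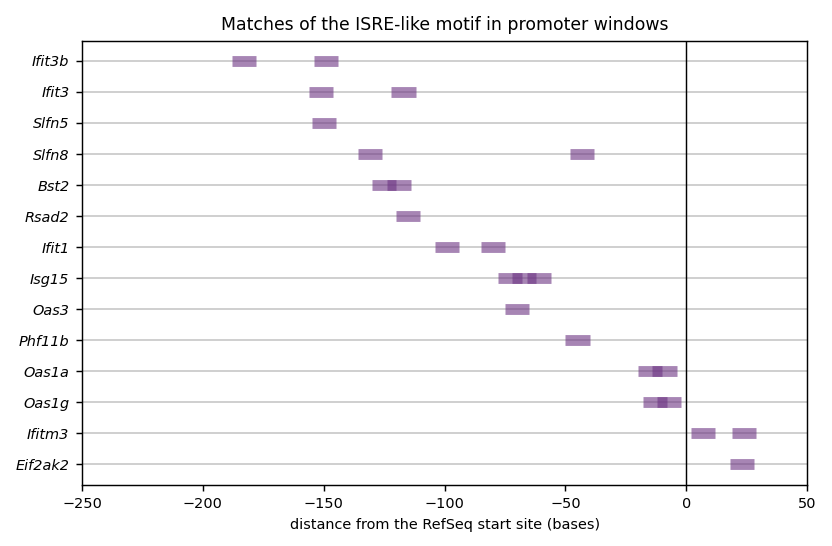
Matches of GAAA, any 2 bases and GAAA, on either strand, in the RefSeq windows of the 14 members that have one; the x axis is the distance from the start in bases, each purple block is 1 match, darker where matches overlap, and the vertical line is the start. The blocks of 12 members lie before the start, from the block whose first letter is at -188 in Ifit3b to that at -12 in Oas1g, and those of Ifitm3 and Eif2ak2 lie after it.

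All 40 members had a TPM (a level corrected for transcript length and scaled to the library) of at least 1 in every library, against 17.4% of all annotated genes and 41.4% of protein-coding genes. The lowest value of any member in any library was 15.7 TPM, for Oas2 in replicate 2, and the highest 1232 TPM, for Ifit2 in replicate 1. The median over members of the mean level was 126 TPM, against 8.59 TPM over the 9106 detected nuclear protein-coding genes. On the log2(TPM + 1) scale these medians were 6.97 and 3.25. A mean of 100 TPM or more was reached by 25 members, against 5.06% of detected nuclear protein-coding genes. Among the first 1000 of 22015 nuclear protein-coding genes by level stood 35 members, where 1000 genes are 4.54% of the whole and the pseudogene Mx2 was not ranked. Ranks ran from 22, for Ifitm3, to 1902, for Oas2. The highest 5 members, Ifitm3, Ifit2, Rsad2, Isg15 and Ifit3, held 43.6% of the members' summed TPM. In bulk RNA, more cells with a transcript and more of it per cell cannot be told apart.

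Depth was 38197192, 46327891 and 38685666 expected counts on genes in replicates 1, 2 and 3. The fewest counts of any member in a library were the 2863 of Isg20 in replicate 3. The 7SL RNAs took 54.5%, 63.0% and 56.4% of TPM in replicates 1, 2 and 3, which lowers every other TPM in a library. The nuclear RNA Malat1, a gauge of nuclear RNA in a cytosolic preparation, stood at 1445, 485 and 1726 TPM. Replicate 2 was the lowest for Malat1, and likewise for Neat1, at 87.7, 16.1 and 88.3 TPM. All 8 macrophage markers were detected. None of 5 conventional dendritic, 4 B cell, 5 T and NK cell and 4 stromal markers was, and of 5 neutrophil markers S100a8 and S100a9 were, at 3.22 and 4.55 TPM. Of 5 plasmacytoid dendritic markers, a type known for interferon secretion, 1 was detected, the transcription factor gene Tcf4 at 16.9 TPM. Siglech, which defines that type, was at most 0.07 TPM and Klk1 had 0 counts in each library. The summed level of the plasmacytoid list was 19.9, 14.3 and 17.6 TPM in replicates 1, 2 and 3, nearly all of it Tcf4. What part any such cells had in the members' levels was not tested.

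**Figure D2:**
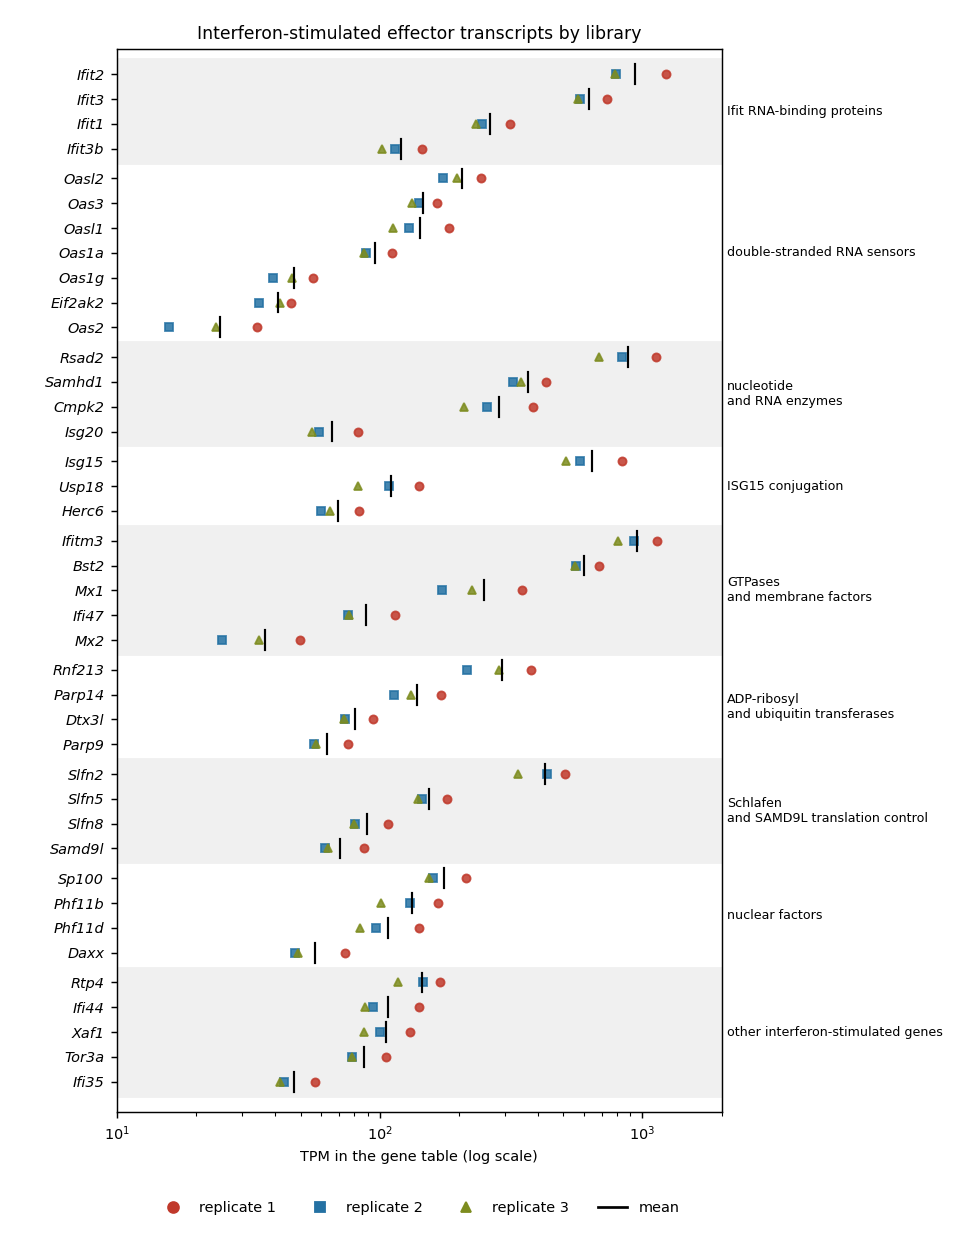
TPM of each of the 40 members in the deposited gene table on a log axis, in the 9 role groups, with a point for each of 3 libraries and a bar at their mean. Replicate 1 is the rightmost point of all 40 members, and the values span 15.7 TPM (Oas2, replicate 2) to 1232 TPM (Ifit2, replicate 1).

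The Ifit proteins bind foreign RNA, and their 4 genes lie together at chr19:34550694-34650009 on mm10. Their summed level was 1947 ± 414 TPM (SD, n = 3), against 1928 ± 351 TPM for the GTPases and membrane factors, the next of the 9 role groups. The Ifit sum was the higher in replicate 1 only, at 2425 against 2331 TPM, and the lower in replicate 2, at 1729 against 1759 TPM, and in replicate 3, at 1688 against 1693 TPM. Ifit2, which binds AU-rich RNA, had 1232, 791 and 786 TPM in replicates 1, 2 and 3. The 2 lower libraries nearly coincided and replicate 1 stood apart. Ifit3, a partner that stabilises the Ifit1 complex in human cells, had 736, 579 and 568 TPM. Ifit1, which recognises viral RNA whose cap lacks ribose methylation, had 312, 244 and 232 TPM. Again replicate 1 was high and the other libraries close together. Ifit3b, a mouse paralog of Ifit3, had 145, 114 and 102 TPM. Ifit3 exceeded Ifit3b by 2.38 ± 0.07 (log2 ratio of TPM + 1, mean and SD, n = 3), which is 5.20-fold. These paralogs share sequence, with 61.8% of the 31-base words of Ifit3 present in other genes, in this case Ifit3b, so how reads were split between them is uncertain. Ifit2 exceeded Ifit1 by 1.81 ± 0.15 and Ifit3 by 0.55 ± 0.16 on the same scale.

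The oligoadenylate synthetases and PKR respond to double-stranded RNA, and 3 of the 5 lowest members by mean TPM are among their 7 genes. The synthetases make the oligoadenylate that activates RNase L. Oas2, Oas3, Oas1g and Oas1a lie at chr5:120730333-120907521. Oas3, which prefers long double-stranded RNA, had 166, 141 and 133 TPM in replicates 1, 2 and 3. Its SD on the log2 scale, 0.16, was the smallest of the 40 members. Oas2 had 34.2, 15.7 and 23.9 TPM, with the largest SD of the 40, 0.54. Oas2 was below Oas3 by a log2 ratio of -2.58 ± 0.44 (mean and SD), and by -2.34 without replicate 2. Oas1a and Oas1g are both known as active synthetases in the mouse. Oas1a had 111, 89.1 and 87.4 TPM, and Oas1g had 55.5, 39.2 and 46.5 TPM. The lowest library was replicate 3 for Oas1a and replicate 2 for Oas1g. Their log2 ratio was 1.02 ± 0.14, but 68.8% of the 31-base words of Oas1a occur in other genes, nearly all of them in Oas1g, and in the read-based transcript table the ratio was 0.72.

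The Oas-like genes lie apart from that cluster, at chr5:114896936-114937915. Oasl2, a synthetase with ubiquitin-like domains, had 244, 175 and 197 TPM in replicates 1, 2 and 3. Oasl1, which in the mouse restrains translation of Irf7, had 184, 130 and 113 TPM. Oasl2 exceeded Oasl1 by 0.54 ± 0.22 (log2). The ratio was widest in replicate 3, at 0.80, and 0.41 and 0.43 in replicates 1 and 2, since Oasl1 was lowest in replicate 3 and Oasl2 in replicate 2. Eif2ak2, the gene of PKR, which halts translation by phosphorylating eIF2α, was among the lowest members, with 46.1, 34.8 and 41.7 TPM.

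The enzymes of nucleotide and RNA metabolism summed to 1595 ± 377 TPM. Rsad2, the gene of viperin, which turns CTP into a chain terminator of viral polymerases, had 1124, 834 and 684 TPM in replicates 1, 2 and 3. Cmpk2, the gene of a mitochondrial nucleotide kinase beside Rsad2 at chr12:26442746-26479837, had 383, 257 and 210.1 TPM. The 3 libraries stood in the same order for both genes, and their log2 ratio held within 1.55 and 1.70, at 1.65 ± 0.09. Samhd1, the gene of a deoxynucleotide hydrolase, had 428, 323 and 345 TPM, with replicate 2 the lowest. Isg20, an RNA exonuclease gene, had 82.5, 58.8 and 55.4 TPM.

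Isg15 encodes a ubiquitin-like protein that is joined to other proteins and also secreted. It had 837, 577 and 513 TPM in replicates 1, 2 and 3. Usp18, whose product removes ISG15 and restrains the interferon receptor, had 141, 108 and 82.5 TPM. Herc6, the main ISG15 ligase in the mouse, had 83.5, 59.7 and 64.6 TPM. Modifier stood above remover by a log2 ratio of 2.53 ± 0.11, and Isg15 above Isg20 by 3.26 ± 0.07. For Herc6, 24.9% of its 31-base words occur in an overlapping processed transcript, Gm45193, which had at most 0.53 TPM.

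Among the GTPases and membrane factors, Ifitm3, which hinders fusion of viruses at endosomes, had the highest mean of all members. It had 1137, 927 and 805 TPM in replicates 1, 2 and 3. Bst2, the gene of tetherin, which holds budding viruses at the cell surface, had 681, 558 and 552 TPM and, with an SD of 0.17 (log2), was next to Oas3 in steadiness. Ifi47, an immunity-related GTPase gene, had 115, 75.6 and 76.4 TPM. It overlaps the olfactory receptor gene Olfr56 on the same strand, which was given 16.3, 9.35 and 12.4 TPM, so reads of the overlap may have gone to either.

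The Mx genes, at chr16:97447035-97560900, encode dynamin-like GTPases, and C57BL/6 mice are known to carry defective alleles of both. Mx1 had 349, 173 and 226 TPM in replicates 1, 2 and 3, and Mx2, annotated as a polymorphic pseudogene, had 49.9, 25.1 and 34.7 TPM. Both were lowest in replicate 2, and their SDs of 0.51 and 0.48 (log2) were next to that of Oas2. The log2 ratio of Mx1 over Mx2 stayed at 2.73 ± 0.06, which is 6.64-fold.

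Parp14, Dtx3l and Parp9 lie together at chr16:35832874-35972605. Parp14, a mono-ADP-ribosyl transferase gene, had 171, 113 and 131 TPM in replicates 1, 2 and 3. Parp9 and Dtx3l, whose products form a ubiquitin ligase complex, had 75.7, 56.2 and 57.4 TPM and 94.2, 74.1 and 73.4 TPM. The libraries ranked alike for the partners apart from near-equal values in replicates 2 and 3. Their log2 ratio, Parp9 over Dtx3l, was -0.35 ± 0.04, the smallest SD of the 15 ratios. The 2 genes overlap by 682 bases on opposite strands, and whether counting used strand is not stated. Rnf213, the gene of a giant ubiquitin ligase that acts on the lipid A of bacteria in the cytosol, had 376, 215 and 284 TPM.

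Among genes tied to translation and cell growth, Slfn5, Slfn8 and Slfn2 lie at chr11:82951349-83070678. Slfn2, which protects tRNA in mouse T cells, had 509, 434 and 337 TPM in replicates 1, 2 and 3. Slfn5, which restricts herpesvirus transcription in human cells, had 179.7, 145 and 139 TPM. Slfn8, a long Schlafen gene, had 108, 80.5 and 79.5 TPM. Slfn2 was lowest in replicate 3, well under the other libraries, while Slfn5 and Slfn8 had near-equal values in replicates 2 and 3. Slfn2 exceeded Slfn5 by 1.45 ± 0.16 and Slfn8 by 2.24 ± 0.17 (log2). The direction against Slfn5 depends on the division by transcript length, since the effective length was 1443 bases for Slfn2 and 5141 for Slfn5 and the ratio of counts alone was -0.38. Samd9l, which blocks translation in cells infected by poxviruses, had 87.2, 61.8 and 63.6 TPM.

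The nuclear factors summed to 472 ± 109 TPM. Sp100, a component of PML nuclear bodies, had 213, 159 and 154 TPM in replicates 1, 2 and 3. Daxx, a histone chaperone gene of the same bodies, had 73.9, 47.6 and 49.0 TPM. Phf11b and Phf11d, PHD-finger genes at chr14:59320964-59365470, had 167, 130.2 and 101 TPM and 141, 96.8 and 83.9 TPM. Replicate 3 was the lowest for both. Phf11d was below Phf11b by a log2 ratio of -0.31 ± 0.10, and the ratio of counts alone was 0.14. Of the 31-base words of Phf11b 62.9% occur in other genes, 44.5% in Phf11a.

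The remaining members have varied or less defined products. Rtp4, a receptor-transporter gene, had 169.6, 146 and 118 TPM in replicates 1, 2 and 3. Ifi44 had 141, 94.7 and 87.9 TPM. Xaf1, an inducer of cell death, had 130.2, 99.9 and 87.0 TPM, and Tor3a, of the torsin ATPase family, had 105, 78.3 and 78.3 TPM. Ifi35 was the lowest of this set with 56.7, 43.4 and 41.7 TPM. For all 5 the lowest library was replicate 3.

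Ratios within a library were compared for 15 pairs of paralogs, neighbours or partners, because a ratio is free of the scale of its library. All 15 had the same direction in 3 of 3 libraries. The same count over other pairs of genes was not made, so this cannot be called a trait of these pairs. The exact two-sided sign-flip permutation test gave p = 0.25 for each, the smallest that 3 libraries allow, and adjustment over 15 equal values leaves 0.25, so no pair can pass a threshold of 0.05 in this design. The p-values reflect only that the 3 signs agree and do not measure the spread between libraries. That spread ran from an SD of 0.04, for Parp9 over Dtx3l, to 0.44, for Oas2 over Oas3. The 8 genomic clusters of members, with gaps under 1 Mb, hold 22 of the 40. The list was fixed by name and holds several genes of the same families. The same count over other genes was not made, so clustering is not shown to be a trait of the members. Within a cluster the mean TPM differed between its highest and lowest member by 1.24-fold for the Phf11 pair up to 7.79-fold for the Ifit genes.

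**Figure D3:**
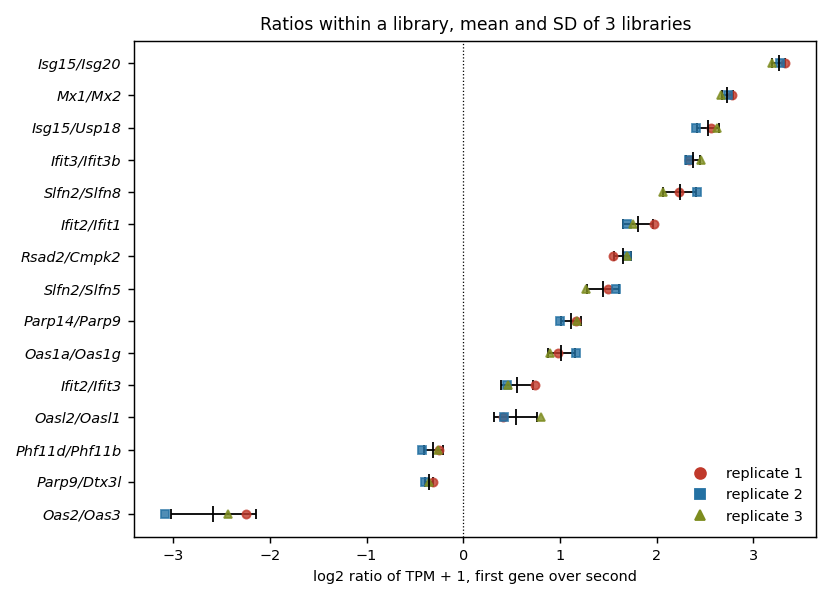
Log2 ratio of TPM + 1, first gene over second, for the 15 pairs in each of 3 libraries; the black bar and whiskers are the mean and SD. Every pair lies on 1 side of 0 in all 3 libraries, from -2.58 for Oas2 over Oas3 to 3.26 for Isg15 over Isg20.

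Replicate 1 had the highest TPM of the 3 libraries for all 40 members, but so it had for 76.7% of detected nuclear protein-coding genes. To set that common shift aside, the log2 TPM of a library was compared with the mean of the other 2 and centred on the median over the 9106 detected genes. After centring, all 40 members were still above 0 in replicate 1, against 50.0% of genes, by 0.04 (Eif2ak2) to 0.59 (Mx1). Replicate 1 was the highest library for 36 of 40 members, against 31.1% of genes. The exceptions were Oas3, Slfn2 and Rtp4, highest in replicate 2, and Eif2ak2, highest in replicate 3, where 35.4% and 33.5% of genes were highest. The median centred deviation of the members was 0.20 in replicate 1, -0.05 in replicate 2 and -0.15 in replicate 3. Members made up 3.44%, 3.00% and 2.87% of the TPM of nuclear protein-coding genes in these libraries.

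The members were sorted by their lowest library after centring, at times on a near tie. Samd9l had -0.133 in replicate 2 and -0.121 in replicate 3, and Parp9 had -0.096 and -0.099. Replicate 3 was lowest for 28 of 40 members, against 32.8% of genes, replicate 2 for 12, against 35.0%, and replicate 1 for none, against 32.1%. The last count follows from all 40 being above 0 in replicate 1, since the 3 deviations of a gene sum to nearly 0. The members were thus divided between replicates 2 and 3 only, where 3190 and 2991 genes were lowest. With counts normalized by TMM in place of TPM the split was 31, 8 and 1, and the shares over all genes were not counted there. Usp18 (-0.50), Cmpk2 (-0.49), Phf11b (-0.46), Rsad2 (-0.42) and Slfn2 (-0.40) lay furthest below the other libraries in replicate 3. Oas2 (-0.73), Mx2 (-0.59), Mx1 (-0.56) and Rnf213 (-0.47) lay furthest below in replicate 2. All 4 Ifit genes were lowest in replicate 3, and of the 7 double-stranded RNA sensors 4 were lowest in replicate 2, namely Oas2, Oas1g, Oasl2 and Eif2ak2. The other 8 with replicate 2 lowest were Mx1, Mx2, Rnf213, Parp14, Samhd1, Herc6, Samd9l and Daxx. Of the 28 members lowest in replicate 3, 25 had the centred order 1, 2, 3. That count follows from their choice as lowest in replicate 3 and from replicate 1 being highest for most members. The 12 members lowest in replicate 2 could not have this order, since it needs replicate 3 to be the lowest. Ifnb1, which encodes interferon-β, stood at 4.74, 2.64 and 1.47 TPM in replicates 1, 2 and 3, and a link to the members was not tested. With 1 treatment and 3 libraries these orders are a description of the libraries.

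**Figure D4:**
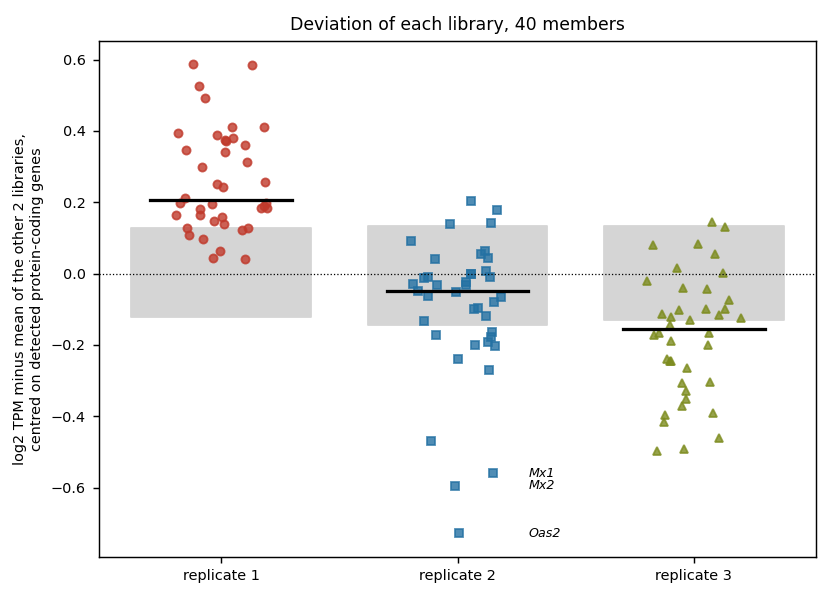
Centred deviation (log2) of each of the 40 members in each library from the mean of the other 2 libraries; black bars are the medians of the members and the grey band is the middle 50% of 9106 detected nuclear protein-coding genes. All points of replicate 1 are above 0, with a median of 0.20, and Oas2, Mx2 and Mx1 stand lowest in replicate 2.

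The spread between libraries was measured on counts with edgeR. Over the members the median biological coefficient of variation was 0.127, from 0.0962 (Oas1g) to 0.197 (Oas2), against 0.144 over all 12752 genes of the fit and 0.121 over the detected nuclear protein-coding genes. Without replicate 2 the order against all genes turned, with 0.133 for the members and 0.128 for all genes. All 40 members passed the filter on low counts. These values are drawn towards a common trend, and 1 dispersion estimated over the 40 members together gave 0.139, against 0.189 over all genes. Without replicate 2 the value over all genes was 0.135, and that of the members together was not estimated. On TPM, which keeps the common shift of replicate 1, the median SD of log2 values was 0.27 for members and 0.16 for detected genes, and after centring 0.16 and 0.12. The members with the largest SD were Oas2, Mx1, Mx2, Cmpk2 and Rnf213, and those with the smallest Oas3, Bst2 and Oas1a.

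Transcripts of the members were read from the deposited transcript tables. A table made from reads and an index is called read-based here, and one made from alignments alignment-based. The median share of a member's TPM from protein-coding transcripts was 97.4% in the read-based table, and 28 members had 90% or more, while 7 had less than 75%. The polymorphic pseudogene transcripts of Mx2 were counted as protein-coding here, which gave it a share of 71.7%. The same shares over all detected genes were not computed, so whether the members differ from other genes is not shown. For 8 members the annotation holds 1 transcript, and for 15 it holds protein-coding ones only. Mx1 had 28.7% ± 1.3 (SD, n = 3) from protein-coding transcripts and 50.2% ± 1.9 from transcripts annotated as targets of nonsense-mediated decay, the removal of messages with early stops. In the alignment-based table the decay share of Mx1 was 60.7% ± 2.2. Oasl2 had 44.5% ± 2.5 and Oas1g 54.8% ± 3.1 from 1 decay transcript each. For Oas1g the alignment-based table gave 35.5% ± 3.1, so its share depends on the quantifier. In Xaf1 a decay transcript of 415 bases held 38.5% ± 2.8.

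Retained-intron transcripts, which keep an intron and mostly stay in the nucleus, had a share above 0 in 21 members. The share was lowest in replicate 2 in 19 of the 21, against 81.6% of the 5700 detected nuclear protein-coding genes with such a transcript, so the members did as most genes did. The alignment-based table gave 18 of 21 and 78.1%. Medians over the members were 7.53%, 3.34% and 7.36% in replicates 1, 2 and 3, beside 6.94%, 2.73% and 9.30% over all such genes. Oasl2 had 25.8%, 8.40% and 20.8%, Oas1g 20.7%, 7.55% and 20.2%, and Eif2ak2 14.3%, 4.46% and 15.8%. Samhd1 went the other way, with 14.5%, 22.0% and 24.0%, and was, with Daxx, an exception to replicate 2 being lowest. The low Malat1 and Neat1 values were in the same library. With protein-coding transcripts of the read-based table alone, 11 members were lowest in replicate 2, against 35.5% of genes, 28 in replicate 3, against 32.4%, and 1, Oasl2, in replicate 1. Of the 12 lowest in replicate 2 with all transcripts in the gene table, 9 were so again. Oas1g, Oasl2 and Herc6 were not, and Ifi47 and Slfn8 were added. The quantifier changed along with the transcripts, so the part of either in these moves was not tested. Ifi47 and Slfn8 had 100% of their TPM from protein-coding transcripts in every library. Oas2 and Eif2ak2 were then the double-stranded RNA sensors lowest in replicate 2. The deviation in replicate 2 was then -0.77 for Oas2, -0.53 for Mx1 and -0.49 for Rnf213, close to the values with all transcripts. It was nearer to 0 for Oas1g (-0.01 in place of -0.24), Eif2ak2 (-0.05 in place of -0.20), Herc6 (-0.06 in place of -0.16) and Parp14 (-0.16 in place of -0.27), and that of Oasl2 was 0.16 in place of -0.19. Other members moved further from 0, among them Samhd1 (-0.20 in place of -0.12) and Ifi47 (-0.25 in place of -0.17). Slfn8 (-0.137 in place of -0.065) and Daxx (-0.26 in place of -0.20) did so too. A cause of these moves was not tested.

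**Figure D5:**
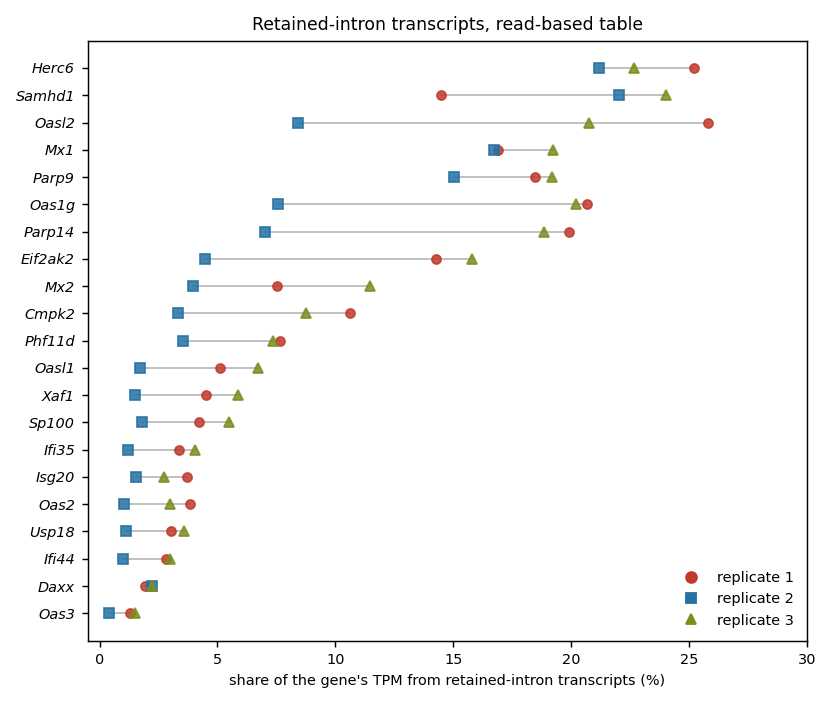
Share of a gene's read-based TPM from transcripts annotated with a retained intron, in percent, for the 21 members that have a share, with a point for each of 3 libraries. Replicate 2 is the leftmost point except for Samhd1 and Daxx; Herc6 and Samhd1 have mean shares of 23.0% and 20.2%.

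Agreement between the quantifiers was close for most members. Read-based TPM was lower than that of the gene table by a common shift of -1.29 (log2) over 9095 genes, and 36 of 40 members lay within 0.2 of it, against 79.8% of genes. Mx1 and Mx2 were each 0.29 above the shift and Oas1g 0.20 above it. Rnf213 lay below the shift, at -0.68. In the alignment-based table a transcript of 2422 bases held 44.5% ± 2.8 of its TPM, and 5.06% ± 5.88 when quantified from reads. Whether the assignment of reads between this transcript and a long one of 16716 bases bears on the gene's level was not tested. A processed transcript on the opposite strand of Rnf213, A930037H05Rik, had 12.4, 2.40 and 9.37 TPM, and 15 of the 40 members overlap some other annotated gene. The share of all genes with such an overlap was not counted.

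Upstream of the members, all 10 genes of a list running from TLR4 to interferon were detected, and all 9 of a list of the receptor and ISGF3. The share detected was 41.4% over protein-coding genes and 17.4% over all annotated genes. Irf7, the factor that amplifies interferon transcription, had 877, 688 and 619 TPM in replicates 1, 2 and 3. Tlr4 averaged 23.0 ± 1.4 TPM (SD, n = 3), its partner Ly96 23.3 ± 3.4 TPM. Ticam1, the gene of TRIF, had 11.2, 9.28 and 9.54 TPM in replicates 1, 2 and 3. The receptor genes Ifnar1 and Ifnar2 averaged 25.2 ± 5.0 and 64.9 ± 9.9 TPM. Of the ISGF3 genes Stat2 averaged 139 ± 28 TPM and Irf9 26.1 ± 3.0 TPM, with Irf9 at the level of the lowest members. Irf1 had 232, 151 and 111 TPM. After centring, 9 of the 19 genes of these lists were lowest in replicate 3, 9 in replicate 2 and 1, Tlr4, in replicate 1. Of 18 type I interferon genes 1 was detected, Ifnb1, with 139, 113 and 51 counts in replicates 1, 2 and 3. Of the other 17, 14 had 0 counts in every library, where a count of 0 allows up to 0.0785 CPM (counts scaled to library depth; 3 counts, at 95% confidence and for counting error only).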

How the data were processed

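Total RNA of 3 libraries, 1 group, was used; per the labels, 1 µg went into each and sizes were 250 to 400 bases. The authors' deposited gene tables hold expected counts, TPM and FPKM per gene, in the column layout of RSEM per the file headers. The deposited transcript tables hold estimated counts and TPM, from alignments or, in kallisto layout, from reads and an index. The text files deposited with them name mm10 and annotation M21; for aligner, quantifier versions and use of strand, nothing is given in the sources used here. TPM sums to a fixed total, so an abundant RNA lowers all others.

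Rows naming no gene, 0.104% to 0.356% of counts, were left out. All 40 members matched by symbol through the transcript names. Values of 1 list gene are not reported here. The members, lists and pairs were chosen with earlier results of these data known. All members are named, in role groups. Detection was a TPM of 1 in all 3 libraries; log2 values used a pseudocount of 1. Spread came from an intercept-only edgeR 4.0.16 fit (R 4.3.3, TMM, filterByExpr) on expected counts, which were rounded first to whole numbers; DESeq2 1.42.0 was an alternative. The fit was tested on simulated data. Between libraries chi-square per degree of freedom was 39.3 to 97.4, so none was a duplicate. Pairs had an exact sign-flip test. Python 3.11.15, pandas 2.3.3, numpy 2.4.6 and scipy 1.17.1 were used. Alternatives were thresholds, pseudocount, FPKM, rescaled TPM, the other tables, normalizations and each library left out.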

Additional observations from a re-analysis of the deposited data

How the results depend on the processing

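No paired analysis was possible because there is only 1 group. All 40 members stayed detected at thresholds of 0.5 and 5 TPM, in both transcript tables, with rescaled TPM and without any 1 library. The thresholds and the left-out libraries could not change this, since the lowest TPM of any member in any library was 15.7. Members at 100 TPM or more numbered 39 when TPM was rescaled to nuclear protein-coding genes and 10 in the read-based table, and 21 to 25 with 1 library left out, the lowest without replicate 1. The share of all genes at that level was not counted in these settings, so the counts say nothing about the members against other genes. The median level (log2) of the members was 7.66 with FPKM, 8.72 with rescaled TPM and 5.66 in the read-based table; that of all detected protein-coding genes was 3.89, 4.90 and 2.20 in the same settings, and 3.11 with a pseudocount of 0.1. So the unit sets the level. One member was lowest in replicate 1 with TMM-normalized counts, and 1 with protein-coding transcripts only. TMM gave 8 members lowest in replicate 2 in place of 12, with no share over all genes counted. The longer ISRE-like motif left 9 of 14 members with a match. Without division by length, on expected counts, the ratio of Phf11d to Phf11b reversed to 0.14 and that of Slfn2 to Slfn5 to -0.38; 11 other ratios moved by more than 1 SD and none of them reversed. With read-based TPM, 4 ratios moved and none reversed. All 15 ratios kept their direction with a pseudocount of 0.1, in the alignment-based table and without any 1 library. A smaller pseudocount or a library left out could not turn a ratio that had 1 direction in every library. The alignment-based ratios were nearly identical to those of the gene table, so they are no separate check. Median spread of the members was 0.105 by DESeq2 and 0.122 to 0.140 with 1 library left out. The median protein-coding share of the members was 97.4% in the read-based table and 98.1% in the alignment-based one, but single shares differed, 29.0% and 55.9% for Oas1g and 37.2% and 23.4% for Oasl2.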
